A study of Mus musculus with 6 samples.

Results

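The genes described here encode the histone chaperones that place histones H3 and H4 on DNA: the CAF-1 complex (Chaf1a, Chaf1b and Rbbp4), the ASF1 proteins (Asf1a and Asf1b), the HIRA complex (Hira, Cabin1 and Ubn1) and the ATRX-DAXX complex (Atrx and Daxx). They were chosen by name, as every probeset annotated with one of these 10 symbols. Each of the 10 genes had 1 probeset, and 0 probesets shared one of these symbols with another gene, so the set holds 10 of the 19938 genes with a symbol of their own and 10 of the 35556 probesets on the array. Expression was measured in mouse embryonic stem (ES) cells carrying a fluorescent reporter named 2C::tomato, which FACS had split into reporter-positive cells (3 arrays) and reporter-negative cells (3 arrays). All 6 samples are titled WT and came from cells kept on gelatin in ES-KOSR medium. The treatment protocol, shared by all 6, names vehicle or 4OHT (4-hydroxytamoxifen) for deletion of Kdm1a, without saying which of them a given sample received. The labels do not name the ES cell clone, nor whether samples are separate cultures. The p-values therefore rest on a spread between samples that could be purely technical. The reporter is known from the literature, where the promoter of the endogenous retrovirus MERVL drives the fluorescent protein and positive cells carry RNAs otherwise found in the two-cell embryo.

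Chromatin is rebuilt along separate routes. CAF-1 travels with the replication fork and deposits the canonical histones H3.1 and H3.2 on newly made DNA, while the HIRA and ATRX-DAXX complexes deposit the variant H3.3 outside replication, HIRA mainly at genes and ATRX-DAXX mainly at telomeres, repeats and silenced retroelements. ASF1 binds H3-H4 dimers and hands them to either route. In mouse ES cells, published depletion of CAF-1 subunits raises the share of cells in the two-cell-like state that this reporter marks. The question here was whether RNA of these chaperones differed between reporter-positive and reporter-negative cells.

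No member passed the test. The intervals given here rest on the spread between these samples, which could be purely technical, and may not bound a difference between cultures. With limma across all 19938 genes, 0 of 10 members had an adjusted p under 0.05 (smallest 0.910), beside 0% of all genes, and 0 of 10 had an unadjusted p under 0.05, beside 1.95% of all genes higher and 2.46% lower. The fitted differences, positive minus negative on the log2 scale, ran from -0.25 for Chaf1b to 0.17 for Daxx, with 6 members above 0 and 4 below. Their median was 0.04, beside -0.04 over all genes, and it was 0.02 without positive array 1 and 0.07 without positive array 2. All 10 of the 95% intervals held 0, and 0 of 10 reached 2-fold in either direction. Fitted differences of at least 2-fold were found for 0 of 10 members, beside 0.527% of all genes. The interval of Hira alone reached past 1.5-fold in this fit, with a lower bound of 0.643-fold. With replicate number as a block, that held for Chaf1b instead (lower bound 0.664-fold) and not for Hira (0.767-fold). Without positive array 1 the lower bound of Hira was -0.83 on the log2 scale, against -0.64 with all 6 arrays and no block. Values are the authors' normalized log2 expression, and none of the 60 member values lay below 8.38, against array medians over all probesets between 6.95 and 7.04.

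Promoter sequences of 4 members are shown to identify the genes described most closely, and no result rests on them: Chaf1a and Chaf1b, the large CAF-1 subunits and the replication-linked arm of the set, and Asf1a and Asf1b, paralogues whose levels ran in opposite directions across the arrays. Each window runs from 250 bases before to 50 bases after the annotated start, 5′ to 3′ on the gene's strand, from RefSeq with build GRCm38.p6. The windows are Chaf1a at chr17:56040166-56040465 (+), Chaf1b at chr16:93883651-93883950 (+), Asf1a at chr10:53596711-53597010 (+) and Asf1b at chr8:83955444-83955743 (+). In the first 2 sequences, capitals mark TTCCCGC or its reverse complement GCGGGAA, a form of the site bound by E2F factors, which drive genes of DNA replication. In the other 2, capitals mark CCAAT or its reverse complement ATTGG, the CCAAT box bound by NF-Y.
Chaf1a: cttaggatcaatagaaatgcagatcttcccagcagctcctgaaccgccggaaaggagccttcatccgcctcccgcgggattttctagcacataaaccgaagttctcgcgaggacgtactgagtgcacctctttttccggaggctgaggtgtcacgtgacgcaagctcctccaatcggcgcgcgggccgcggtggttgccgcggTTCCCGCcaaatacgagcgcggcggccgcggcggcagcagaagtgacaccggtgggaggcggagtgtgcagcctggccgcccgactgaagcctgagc
Chaf1b: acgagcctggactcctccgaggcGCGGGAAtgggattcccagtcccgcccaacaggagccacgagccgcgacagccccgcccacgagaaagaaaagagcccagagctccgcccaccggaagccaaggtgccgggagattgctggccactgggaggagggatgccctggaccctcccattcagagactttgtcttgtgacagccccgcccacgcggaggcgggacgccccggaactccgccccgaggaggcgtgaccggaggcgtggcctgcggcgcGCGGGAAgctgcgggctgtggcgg
Asf1a: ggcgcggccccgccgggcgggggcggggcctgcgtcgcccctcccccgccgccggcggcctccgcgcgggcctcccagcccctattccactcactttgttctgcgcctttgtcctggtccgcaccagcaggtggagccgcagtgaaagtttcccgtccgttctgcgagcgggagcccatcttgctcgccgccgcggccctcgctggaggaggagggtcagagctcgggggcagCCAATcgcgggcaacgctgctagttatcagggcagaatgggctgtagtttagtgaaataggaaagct
Asf1b: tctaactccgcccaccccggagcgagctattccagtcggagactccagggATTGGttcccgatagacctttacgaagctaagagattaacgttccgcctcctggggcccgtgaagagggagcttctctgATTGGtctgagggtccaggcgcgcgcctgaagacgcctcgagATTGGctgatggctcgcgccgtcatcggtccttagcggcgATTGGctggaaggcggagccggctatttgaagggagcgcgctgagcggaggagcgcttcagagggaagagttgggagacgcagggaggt
The E2F letters TTCCCGC occurred once in the Chaf1a window and at 2 places in the Chaf1b window, and in no window of the other 8 members, while 4.60% of all 32851 promoter windows in the table held them. A second form, TTGGCGC (reverse complement GCGCCAA), was found for Atrx and Rbbp4 and in 2.45% of all windows. CCAAT occurred at 1 place in the Asf1a window and at 4 in the Asf1b window. The 10 members had 12 windows, since Daxx had 3 that overlap. CCAAT was found for 8 of the 10 members, in 8 of these 12 windows, and in 37.4% of all windows. The ETS letters CCGGAAG (reverse complement CTTCCGG) were found for Chaf1b, Daxx and Hira, in 5 of the 12 windows (8.86% of all windows). The E box CACGTG, the same on both strands, was found for Chaf1a, Rbbp4 and Ubn1, in 3 of the 12 (7.15%). The motifs were picked with the expression values known, and a match is a description of letters and not of binding. The window of Atrx had 11 CpG dinucleotides and those of the other members between 22 and 39, with a median of 7 over all windows.

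CAF-1 came first because it is the arm tied to the two-cell-like state in published work. Chaf1a (probeset 10446027) encodes the p150 subunit, which contacts the replication clamp PCNA. Its log2 level was 9.74, 9.65 and 9.58 in positive arrays 1, 2 and 3, and 9.68, 9.82 and 9.69 in the negative arrays. The groups overlapped, with positive array 1 above negative arrays 1 and 3. The difference was -0.08 (SE 0.11, limma adjusted p = 0.948), with a 95% interval from 0.798-fold to 1.13-fold. It was -0.12 with no overlap without positive array 1, a setting in which 18.3% of all genes had no overlap. Without positive array 3 it was -0.04, and without negative array 2 it was -0.03. Within same-numbered pairs Chaf1a differed by 0.05, -0.17 and -0.12, so the pairs did not share a direction.

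Chaf1b (probeset 10437040), which encodes the p60 subunit that binds ASF1, was the single member whose groups did not overlap. It stood at 11.36, 11.03 and 11.25 in positive arrays 1, 2 and 3 and at 11.39, 11.64 and 11.37 in the negative arrays. All 3 positive arrays lay below all 3 negative arrays, but positive array 1 and negative array 3 were almost level, and most of the gap came from replicate 2, which held both the lowest and the highest value. The positive arrays averaged 11.21 ± 0.17 (SD, n = 3). The negative arrays averaged 11.47 ± 0.15 (SD, n = 3), which gave a difference of -0.25 (SE 0.14), or 0.839-fold with a 95% interval from 0.672 to 1.05. It did not pass (limma adjusted p = 0.910). By pair it differed by -0.03, -0.61 and -0.12, the same direction in all 3. Over all genes, 7.15% were lower without overlap and 4.08% higher, so 1 of 10 members lower and 0 of 10 higher is near that background. Without positive array 2 the difference was -0.16, without negative array 2 it was -0.17, with array weights -0.09, and with both arrays of replicate 2 left out -0.08.

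Rbbp4 (probeset 10516576) encodes the WD-repeat subunit p48, which CAF-1 shares with other chromatin complexes such as Polycomb repressive complex 2 and NuRD. Its levels were 12.44, 12.52 and 12.30 in positive and 12.35, 12.43 and 12.31 in negative arrays, and the negative arrays lay inside the positive range. The 6 arrays spanned 0.22, the narrowest range of the 10 members. The difference was 0.06 (SE 0.11, limma adjusted p = 0.967), with an interval from 0.871-fold to 1.24-fold. It was 0.0073 without positive array 2, and 0.12 with no overlap without positive array 3, where 20.3% of all genes had no overlap.

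**Figure D1:**
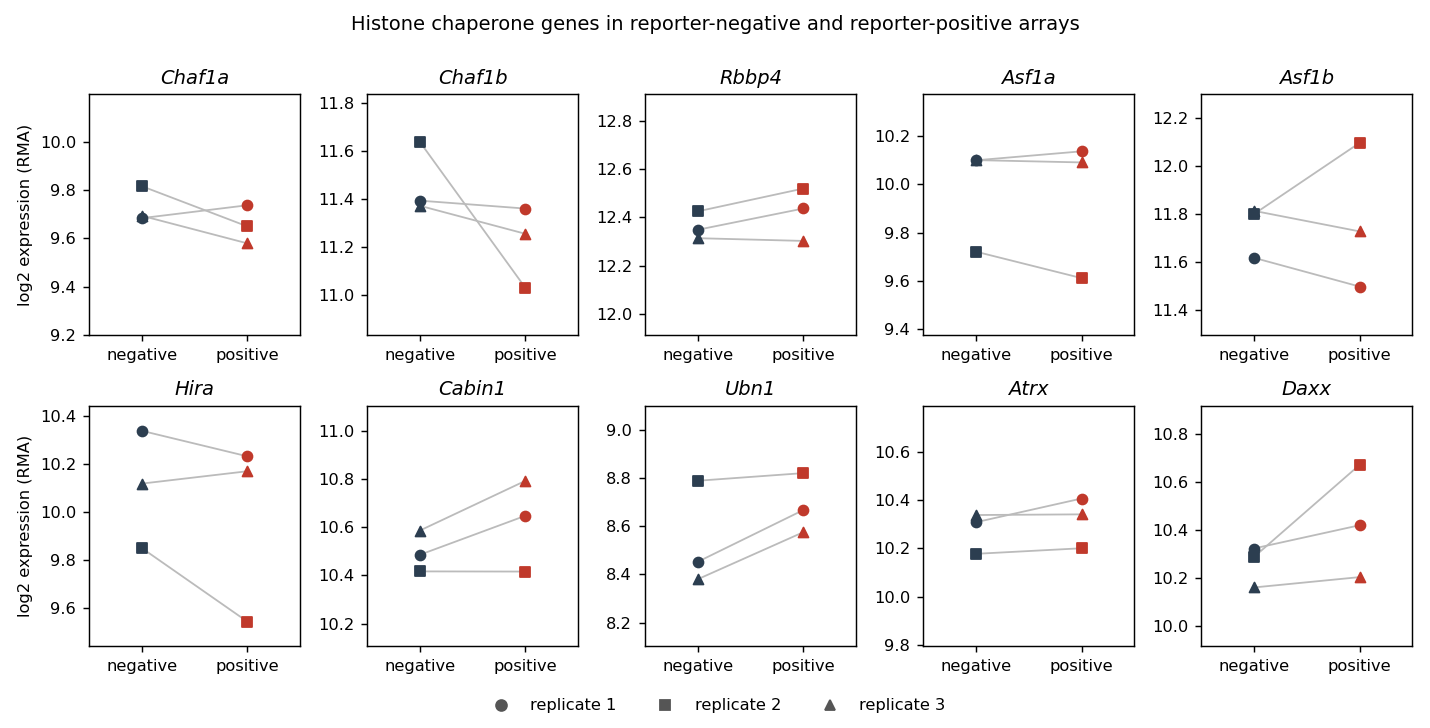
Log2 expression (RMA, vertical axis) of the 10 chaperone genes in reporter-negative (dark) and reporter-positive (red) arrays, with grey lines joining arrays of the same replicate number; every panel spans 1 log2 unit. Chaf1b alone has all positive arrays below all negative arrays, and the squares (replicate 2) lie at the bottom of the Asf1a, Hira, Cabin1 and Atrx panels in both groups.

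The ASF1 paralogues feed both deposition routes. Asf1a (probeset 10363163), the form that works with HIRA, had levels of 10.14, 9.61 and 10.09 in positive and 10.10, 9.72 and 10.10 in negative arrays. Both arrays of replicate 2 lay well below the other 4, whichever group they belonged to. The difference between groups was -0.03 (SE 0.18, limma adjusted p = 0.991), and its sign turned in 4 of the settings given in the closing section.

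Asf1b (probeset 10573261), the form associated with proliferating cells and CAF-1, stood at 11.50, 12.10 and 11.73 in positive and 11.62, 11.80 and 11.81 in negative arrays. Positive array 2 was the highest and positive array 1 the lowest, so the negative arrays lay inside the positive range. The difference was 0.03 (SE 0.17, limma adjusted p = 0.988), with pairs at -0.12, 0.30 and -0.09. Without positive array 2 it was -0.13. Across the 6 arrays Asf1a and Asf1b correlated at r = -0.81, and on the mean of replicate 2 minus that of replicates 1 and 3 Asf1a was 0.44 lower and Asf1b 0.28 higher. These values describe 6 arrays that share 3 replicate numbers, and the labels do not say what a number marks.

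Genes of the HIRA complex also varied with the replicate number. Hira (probeset 10434252) encodes the WD-repeat scaffold of the complex. Its levels were 10.23, 9.54 and 10.17 in positive and 10.34, 9.85 and 10.12 in negative arrays. The 2 arrays of replicate 2 were again the lowest of the 6, and the total span of 0.79 was the widest among the members. The difference was -0.12 (SE 0.22, limma adjusted p = 0.965). Without positive array 2 it was 0.10. In a fit blocked on replicate number, the 95% interval of Hira was between 0.767-fold and 1.10-fold.

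Cabin1 (probeset 10369948), the subunit that binds the HIRA scaffold and also calcineurin, was at 10.65, 10.42 and 10.79 in positive and 10.49, 10.42 and 10.59 in negative arrays. Replicate 2 was lowest in both groups, where the 2 arrays differed by -0.00068, while pairs 1 and 3 differed by 0.16 and 0.21. The fitted difference was 0.12 (SE 0.13, limma adjusted p = 0.924). It was 0.04 without positive array 3, and 0.22 with no overlap without positive array 2, where 23.8% of all genes had no overlap.

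Ubn1 (probeset 10433352), the subunit that recognises H3.3, was at 8.67, 8.82 and 8.58 in positive and 8.45, 8.79 and 8.38 in negative arrays. The groups overlapped only through negative array 2, and within every pair the positive array was the higher, by 0.22, 0.03 and 0.20. The difference was 0.15 (SE 0.14), or 1.11-fold with an interval from 0.874 to 1.40, and it did not pass (limma adjusted p = 0.918). Leaving out negative array 2, the only source of overlap, gave 0.27. The lack of overlap there follows from that choice, and 33.1% of all genes had none in that setting. Leaving out negative array 3 gave 0.07, and leaving out positive array 2 gave 0.08. The 3 subunits of this complex thus had differences of either sign, Hira below 0 and Cabin1 and Ubn1 above. All 3 intervals held 0 in this fit. That of Ubn1 lay above 0 with array weights (limma adjusted p = 0.152), where 4851 of 19938 genes had an unadjusted p under 0.05. In that fit negative array 3 had a weight of 6.21, and the other arrays had 0.27 to 2.03.

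ATRX and DAXX act together, ATRX as a chromatin remodelling ATPase and DAXX as the chaperone that holds H3.3-H4. Atrx (probeset 10606263) was at 10.41, 10.20 and 10.34 in positive and 10.31, 10.18 and 10.34 in negative arrays. The groups covered nearly the same range, and replicate 2 was the lowest in both. The difference was 0.04 (SE 0.11, limma adjusted p = 0.974), and its interval ran from 0.858-fold to 1.24-fold. It was 0.10 with no overlap without positive array 2, where 23.8% of all genes had no overlap. The difference was just below 0 without positive array 1 or negative array 2.

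Daxx (probeset 10444056) was at 10.42, 10.67 and 10.20 in positive and 10.32, 10.29 and 10.16 in negative arrays. Positive array 2 was the highest, and positive array 3 lay below negative arrays 1 and 2. The difference of 0.17 (SE 0.14) was the highest of the set, at 1.13-fold with an interval from 0.892 to 1.43, and did not pass (limma adjusted p = 0.917). Its pairs differed by 0.10, 0.38 and 0.04. Without positive array 2 the difference was 0.05, below that of Cabin1. Without positive array 3 it was 0.29 with no overlap of the groups, where 20.3% of all genes had no overlap. With array weights Ubn1 stood above Daxx, at 0.24 against 0.17.

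**Figure D2:**
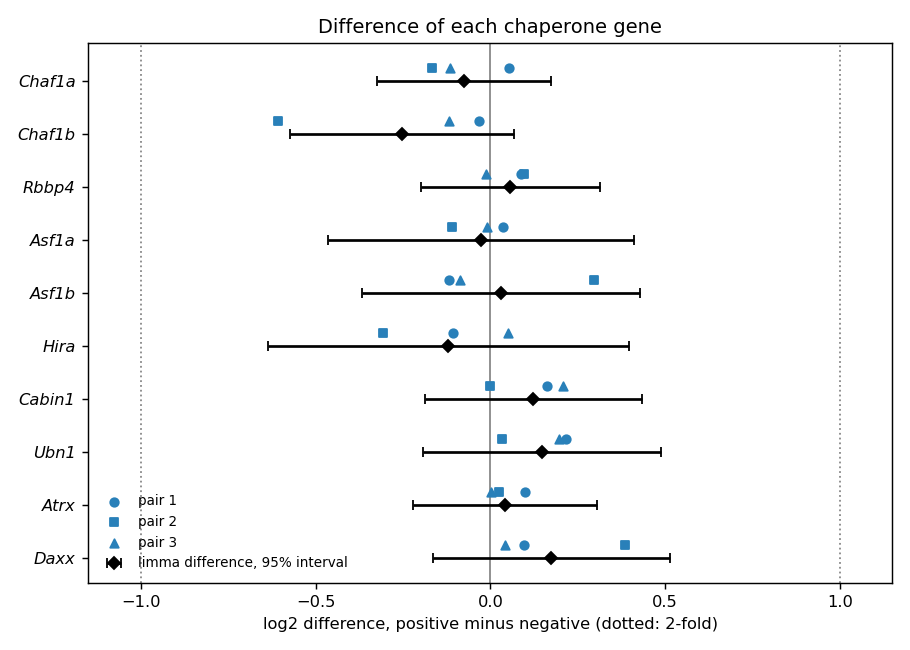
Log2 difference (positive minus negative, horizontal axis) of each chaperone gene from limma with its 95% interval (black), and the difference within each same-numbered pair (blue symbols); dotted lines mark 2-fold. All 10 intervals cross 0 and 0 of 10 reach 2-fold.

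Taken by same-numbered pairs, Chaf1b was lower in all 3 (1 of 10 members, beside 23.7% of all genes), and Ubn1, Atrx and Daxx were higher in all 3 (3 of 10, beside 15.1% of all genes). The Atrx differences were 0.10, 0.02 and 0.0028, so the third was close to 0. With the replicate number as a term in the fit, 0 of 10 members passed (smallest limma adjusted p 0.475), beside 0% of all genes, and 0 of 10 had an unadjusted p under 0.05, beside 5.40% of all genes higher and 6.61% lower.

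The replicate number, which has 3 levels to the reporter's 2, went with more of the members' variation than the reporter did. For 9 of 10 members a larger share of the variation over the 6 arrays lay between replicate numbers than between groups, as it did for 75.7% of all genes. The median share by replicate number was 73.2% for the members and 55.3% for all genes, and the median share by group was 17.2% and 13.5%. Asf1a was at one end, with 97.5% by replicate number and 0.423% by group. Chaf1b was at the other and was the single exception, with 48.8% by group and 2.10% by replicate number. The other CAF-1 subunits were at 27.0% by group and 31.7% by replicate number for Chaf1a, and 13.9% and 76.1% for Rbbp4. For 4 of 10 members (Asf1a, Hira, Cabin1 and Atrx) both arrays of replicate 2 lay below the other 4 arrays, beside 21.8% of all genes, and for Ubn1 both lay above them, beside 17.8%. What the replicate number marks was not tested.

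**Figure D3:**
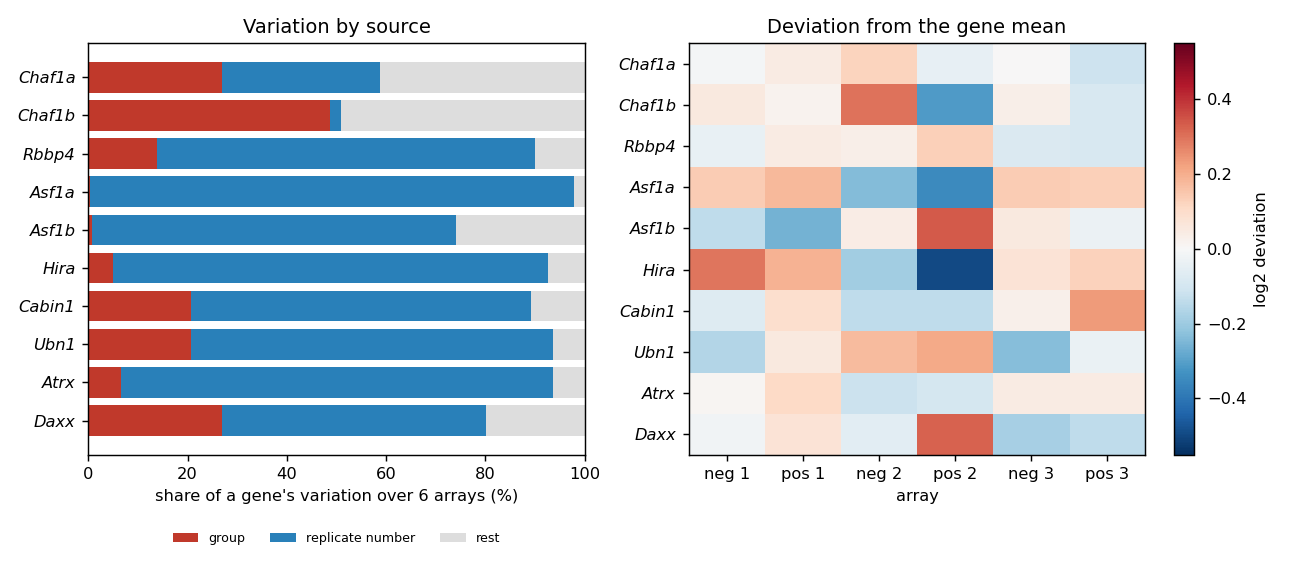
Left, the share of each chaperone gene's variation over the 6 arrays (percent of the sum of squares) that lies between groups (red), between replicate numbers (blue) and in neither (grey). Right, the deviation of each array from the gene's mean over 6 arrays (log2, blue lower and red higher), where both columns of replicate 2 are low for Asf1a, Hira, Cabin1 and Atrx and where Chaf1b has its extremes.

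Members of 1 complex did not share a single profile over the arrays. Chaf1a and Chaf1b correlated at r = 0.76 over 6 arrays, and Rbbp4 correlated with them at 0.33 and -0.31. Hira followed Asf1a (r = 0.95) and Atrx (0.80) more closely than its partners Cabin1 (0.58) and Ubn1 (-0.75), and Atrx and Daxx were at -0.37. All of these arrays share the replicate structure described above. The genes named next were picked as the 3 highest of 9969 candidates for each member over 6 arrays. Such values are high by selection and describe likeness only. Among the 9969 genes with a mean above the median, those closest to Chaf1a by Pearson correlation over the 6 arrays were E2f5 (0.979), Becn1 (0.972) and Cmtm3 (0.968), to Hira they were Eef1e1 (0.999), Rcc1 (0.996) and Ajuba (0.995), and to Atrx they were Epb41l2 (0.992), Prmt5 (0.989) and Zbtb37 (0.983).

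The two-cell-stage genes were listed to set their differences beside those of the chaperones. All 15 measured genes of 21 listed had higher means in positive cells without overlap between the groups, beside 4.08% of all genes. Their median log2 difference was 3.22, and by pair the list median was 2.30, 5.78 and 1.34. Of the others listed, 5 were present only on probesets with several symbols, among them Zscan4c, Zscan4d and Zscan4f. Tcstv1 was not measured. The chaperone medians by pair were 0.07, 0.01 and -0.0034. Of that list, Tdpoz3 differed by 4.80 (SE 1.00) and Usp17la by 3.93 (SE 1.25), and 0 of 15 passed over all genes (limma adjusted p = 0.910 for both), while near-identical copies make their single values uncertain. Earlier studies of this reporter shaped the list, and it was chosen with earlier results of these data known. The direction and size of its differences are therefore no independent evidence on the sort. Positive array 2, which had the highest two-cell mean (11.1, against 8.13 and 7.07 in positive arrays 1 and 3), also held the lowest of all 6 values of Chaf1b, Asf1a, Hira and Cabin1 and the highest of Rbbp4, Asf1b, Ubn1 and Daxx. That is 4 of 10 members each way, beside 32.1% of all genes lowest and 18.3% highest in that array. Negative array 2, with the lowest two-cell mean (5.77), was next in order for Asf1a, Hira, Cabin1 and Ubn1, at 9.72, 9.85, 10.42 and 8.79. Whether these values are connected was not tested. In bulk samples such as these, fewer cells with a given RNA and less of it per cell cannot be told apart.

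Partners of the replication-coupled route gave no call either. This list held 17 genes, among them Pcna, Nasp, Rbbp7, Mcm2 and the ASF1 kinases Tlk1 and Tlk2, and 0 of 17 passed in either direction, with 7 above 0, 10 below and a median of -0.0088. The largest differences were those of Tlk2, at 0.39 (SE 0.21) without overlap of the groups, and of Mcm2, a helicase subunit that also binds H3-H4, at -0.19 (SE 0.12). For both the limma adjusted p was 0.910. Tlk2 differed by 0.21, 0.81 and 0.16 in pairs 1, 2 and 3.

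The H3.3 side of the pathway was represented by 10 measured genes of 12 listed, of which 0 passed, 7 were above 0 and 3 below, with a median of 0.06. Suv39h2, a histone H3 lysine 9 methyltransferase, differed by -0.23 (SE 0.15) without overlap between the groups, and Ubn2, the paralogue of Ubn1, by 0.19 (SE 0.18). Their limma adjusted p values were 0.910 and 0.917. The single-symbol probeset of H3f3a, a gene for H3.3 itself, lay between 6.40 and 6.67 on the 6 arrays, below the array medians. It differed by 0.07 (SE 0.11), a weak reading of H3.3 RNA, since the probeset is dim and RMA compresses dim probesets. Whether this probeset reports H3f3a RNA at all was not tested. H3f3b was present on a probeset with several symbols and was left out.

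Among 17 measured of 20 other histone chaperones 0 passed, with 9 above 0, 8 below and a median of 0.04. Nap1l2, a nucleosome assembly gene known from neurons, differed by 0.64 (SE 0.14), higher in positive cells without overlap, with pairs at 0.42, 0.52 and 0.98 and levels between 5.51 and 6.49, below the array medians. Anp32a, an acidic nuclear protein of the family that binds histones, differed by -0.42 (SE 0.18), with pairs at -0.18, -0.73 and -0.35. Neither passed (limma adjusted p = 0.910 for both).

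Genes of DNA replication were listed because CAF-1 acts in S phase. Of 29 genes, 0 passed, 4 were above 0 and 25 below, with a median of -0.08 beside -0.04 over all genes, of which 12012 of 19938 were below 0. By pair the list median was 0.0027, -0.23 and -0.05, beside -0.02, -0.05 and -0.0065 over all genes. In pair 2 the positive array was the lower for 27 of 29 genes. The share of all genes lower in that pair was not counted, so this count has no background beside it. Cdc6, a licensing factor, differed by -0.40 (SE 0.12) and was lower without overlap, and Ung, a uracil glycosylase, differed by -0.26 (SE 0.18). The limma adjusted p was 0.910 for both. Chaf1b, at -0.61 in pair 2, had its largest gap in the same pair, and the part of the replication genes in it was not tested.

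**Figure D4:**
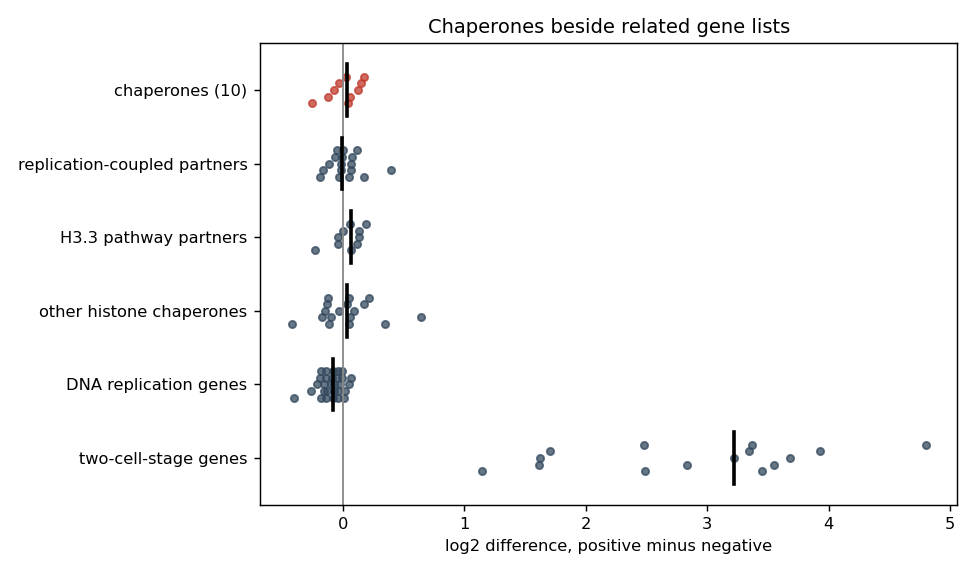
Log2 difference (positive minus negative, horizontal axis) of each gene in 6 lists, with the list median as a black bar; points are spread vertically for legibility. The 10 chaperones (red) lie between -0.25 and 0.17, within the range of the other histone chaperones, while the 15 two-cell-stage genes lie between 1.14 and 4.80.

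Across genes, pairwise correlations of the arrays lay between 0.969 and 0.995. The cells had high levels of the ES cell genes Pou5f1 (12.08 to 12.69 on the 6 arrays), Nanog (12.54 to 12.98) and Sox2 (11.57 to 12.46). Of 10 such genes 0 passed, and Esrrb and Utf1 had the largest differences, at -0.36 (SE 0.17) and -0.29 (SE 0.29). Markers of fibroblasts and contractile cells were below 0 for 8 of 11 genes, beside 12012 of 19938 over all genes. The mean of the list ran from 6.78 to 7.76 in positive and from 7.17 to 7.85 in negative arrays, highest in replicate 2 of both groups. Acta2 and Tagln led it, at -1.16 (SE 1.06) and -1.13 (SE 1.06), and the collagen-binding Lum was at 3.73 to 3.85. Endoderm markers were below 0 for 9 of 10 genes, with list means from 7.33 to 7.65 in positive and 7.66 to 8.00 in negative arrays, led by Gata4 at -0.46 (SE 0.29) and Lama1 at -0.45 (SE 0.45). In the fit blocked on replicate number these SEs were smaller, at 0.31 for Acta2, 0.28 for Tagln, 0.14 for Gata4 and 0.098 for Lama1, and all 4 genes were lower in all 3 pairs. In that fit 6 of 11 contractile and 4 of 10 endoderm genes had an unadjusted limma p under 0.05, all lower except Thy1. Over all genes, 5.40% were higher and 6.61% lower at that threshold. Of the 2 lists 0 genes passed after adjustment (smallest limma adjusted p 0.397 and 0.396). In both lists 0 genes passed without the block either, and their part in the chaperone values was not tested.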

How the data were processed

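Per the submitters' processing notes, the authors normalized the arrays with RMA in Affymetrix Expression Console, which gave the deposited log2 expression values, 1 column per sample. RMA corrects background, normalizes quantiles between arrays and summarises probes per probeset, which removes differences in total RNA and compresses dim probesets. For versions and the genome build, the notes are silent (not given in the sources used here). Per the labels' protocols, 100 ng of total RNA was labelled with biotin.

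Symbols came from the platform annotation, and all 10 members matched RefSeq (GRCm38.p6) by gene identifier, with 0 symbols changed. Where a gene had several probesets its brightest on average stood for it, which left 19938 genes. The group comparison used limma 3.58.1 (R 4.3.3, lmFit, eBayes, two-sided), adjusted by Benjamini-Hochberg over all genes with a threshold of 0.05. The fit was run on simulated data with independent arrays, which checked only that a set shift was recovered on average. Those data had no replicate structure, so the run does not test the fit on arrays like these. Intervals are 95% and unadjusted. The number of arrays limits the precision. Deviations from the group means correlated between same-numbered positive and negative arrays at 0.55, 0.55 and 0.46 for numbers 1, 2 and 3. Between numbers 1 and 3 they correlated at 0.20 both ways, and between number 2 and the others at -0.52 to -0.41. Deviations sum to 0 within a group, so these values are not independent. The numbers were taken to pair the samples, less surely for 1 and 3 than for 2. This pairing comes from the data and not from the labels.

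The 10 members, the lists and the motifs were chosen with earlier results of these data known. The text names the 2 genes of each other list with the largest absolute difference, since none passed, Pou5f1, Nanog and Sox2, and the 3 genes best correlated with Chaf1a, Hira and Atrx. Tlk1, Pcna, Nasp, Rbbp7, H3f3a, H3f3b, Lum and Thy1 were named outside that rule, after their values were seen. Zscan4c, Zscan4d, Zscan4f and Tcstv1 were named only as genes left out. Alternatives were the replicate number as a block, each array left out, both arrays of replicate 2 left out, median centring, a second quantile normalization, array weights, no dim genes, and the mean of a gene's probesets.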

Additional observations from a re-analysis of the deposited data

How the results depend on the processing

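Under all 13 alternative settings 0 of the 19938 genes (13956 without the dimmest 30%), 0 of the 10 members and 0 genes of the partner, chaperone and replication lists passed the limma test. The smallest adjusted p over all genes was 0.910 as reported and 0.0673 with array weights, and for a member it was 0.152 in any setting. Before adjustment, 878 genes had a p under 0.05 as reported, 2394 with the replicate number as a block and 4851 with array weights. The replicate block (pairing), in which the members' median difference of 0.04 is the same by construction, changed no call. The block, the filter on dim genes and the mean of probesets cannot move a member's difference, the first because the pairs are balanced and the last because each member has 1 probeset. In the other 10 settings, 88 of 100 member differences kept their direction, and 6 of 10 members kept it in all of them. The other 12 turned. Asf1a was at 0.014 without both arrays of replicate 2, 0.14 without positive replicate 2, and 0.04 without negative replicate 1 or negative replicate 3, and with 1 array left out ranged from -0.15 to 0.14. Asf1b was at -0.16 with array weights, -0.10 without both arrays of replicate 2, -0.13 without positive replicate 2 and -0.03 without negative replicate 1, with a range from -0.13 to 0.17 over the single arrays left out. Hira was at 0.029 with array weights and 0.10 without positive replicate 2, where 1 array left out gave -0.25 to 0.10. Atrx was at -0.0039 without positive replicate 1 and -0.0072 without negative replicate 2. The cause was not tested. The count of members without overlap, 1 as reported, was 2 with a second quantile normalization (beside 11.4% of all genes), 1 to 3 when 1 array was left out (16% to 33.1%) and 4 without both arrays of replicate 2 (47.5%), settings with fewer arrays that separate more easily. The alternatives for the partner lists were added after the data were seen.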
